A study of Homo sapiens with 16 samples.

Results

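The genes described here encode enzymes of the mevalonate pathway up to squalene. They were chosen by name as ACAT2, HMGCS1, MVK, PMVK, MVD, IDI1, FDPS, FDFT1 and GGPS1, which makes 9 of the 54127 gene identifiers in the count files. RNA was sequenced from 2 established human lines of colorectal cancer, HT55 and SW948, kept as adherent cultures in serum. Each line received itraconazole, an azole antifungal, at 5 µM, or the solvent DMSO alone, and the study took RNA 6 d after treatment. This gave 4 groups of 4 libraries: HT55 DMSO, HT55 itraconazole, SW948 DMSO and SW948 itraconazole. Replicates were numbered in the labels without saying whether they were separate cultures, and the study's methods describe biological replicates, so p-values measure the spread between these libraries, which may in part be technical. Each line is a single tumour's line, so a difference between HT55 and SW948 is a difference between those lines and not between classes of tumour. All 9 genes passed the filter on low counts in every comparison.

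Cells build cholesterol and all other isoprenoids from acetyl-CoA through the mevalonate pathway. Acetyl-CoA is condensed to HMG-CoA, reduced to mevalonate, phosphorylated and decarboxylated to isopentenyl diphosphate, and joined into farnesyl diphosphate, the branch point between squalene, from which sterols are made, and geranylgeranyl diphosphate, which anchors small GTPases to membranes. The transcription factor SREBP2 turns on most genes of sterol synthesis when sterols in the endoplasmic reticulum run low, together with NF-Y, which binds CCAAT boxes, and Sp1, which binds GC boxes. Azole antifungals are known to inhibit lanosterol 14-alpha-demethylase (CYP51A1 in human cells), a step after squalene.

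The promoters were read first, as a description of their letters. The RefSeq promoter table (GRCh38.p14) held 7 of the 9 genes, all but ACAT2 and FDFT1, and the window taken was the 250 bases before the start of the Ensembl canonical transcript. Positions on GRCh37, the build of the count files (hg19), were found by an exact match of each window to that genome. The stretches below run 5′ to 3′ on the strand of the gene. Each is the longest unbroken run of its window that no annotated transcript places in an exon. The last base of a box at the edge of the FDPS stretch, which lies in an exon, was kept. Shorter runs outside exons were left unprinted. Capitals mark CCAAT boxes (CCAAT, or ATTGG where the box lies on the other strand) and the letters TCACNCC, the start of the textbook sterol regulatory element. All 7 genes in the promoter table are shown, first HMGCS1, MVK, MVD, IDI1 and FDPS, which rose with itraconazole in both lines. PMVK and GGPS1, which did not, come after them.
HMGCS1 (chr5:43313615-43313764, minus strand): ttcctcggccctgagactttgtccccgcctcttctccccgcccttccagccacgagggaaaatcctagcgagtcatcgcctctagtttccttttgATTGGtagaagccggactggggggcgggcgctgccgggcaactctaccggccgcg
MVK (chr12:110011386-110011597, plus strand): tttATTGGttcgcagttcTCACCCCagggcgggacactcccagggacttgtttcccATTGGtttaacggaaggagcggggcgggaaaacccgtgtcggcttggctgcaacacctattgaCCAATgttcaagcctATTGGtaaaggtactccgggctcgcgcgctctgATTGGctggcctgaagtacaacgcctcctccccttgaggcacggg
MVD (chr16:88729570-88729705, minus strand): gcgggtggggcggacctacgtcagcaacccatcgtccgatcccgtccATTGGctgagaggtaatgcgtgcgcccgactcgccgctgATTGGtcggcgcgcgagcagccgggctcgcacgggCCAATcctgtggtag
IDI1 (chr10:1095060-1095309, minus strand): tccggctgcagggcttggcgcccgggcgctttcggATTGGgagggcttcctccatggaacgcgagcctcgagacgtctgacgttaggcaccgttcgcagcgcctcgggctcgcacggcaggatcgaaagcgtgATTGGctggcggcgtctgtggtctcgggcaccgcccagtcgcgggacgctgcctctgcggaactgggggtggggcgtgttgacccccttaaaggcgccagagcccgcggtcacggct
FDPS (chr1:155278407-155278539, plus strand): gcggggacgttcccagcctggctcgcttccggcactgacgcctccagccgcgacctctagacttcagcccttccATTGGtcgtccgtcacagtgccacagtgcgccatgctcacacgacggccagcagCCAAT
PMVK (chr1:154909196-154909445, minus strand): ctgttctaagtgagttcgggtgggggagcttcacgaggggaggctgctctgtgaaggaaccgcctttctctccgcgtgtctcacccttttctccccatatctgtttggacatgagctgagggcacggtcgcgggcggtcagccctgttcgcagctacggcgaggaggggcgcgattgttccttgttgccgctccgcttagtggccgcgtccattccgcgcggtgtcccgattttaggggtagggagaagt
GGPS1 (chr1:235491635-235491713, plus strand): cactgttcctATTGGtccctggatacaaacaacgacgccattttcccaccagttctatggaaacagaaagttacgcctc

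In the full windows, MVK held 5 CCAAT boxes, FDPS and MVD held 3 each, HMGCS1 and IDI1 held 2 each, GGPS1 held 1 and PMVK held none. Of 35093 RefSeq promoter windows of the same length, 32% held at least 1 CCAAT box on either strand, 9.52% at least 2 and 2.92% at least 3. The single box of GGPS1 lay near the far end of its window, as its printed stretch shows. GC boxes (GGGCGG, or CCGCCC on the other strand) were found in all 7 windows, against 42.6% of all windows. TCACNCC was found in MVK alone among the 7, against 13.1% of all, and the longer TCACNCCAC in none of the 7, against 0.883%. No CCAAT box in these 7 windows overlapped another of these motifs. The windows of all genes include every RefSeq start, whereas 1 start per gene was counted here. The table holds 12 starts for these 7 genes, and TCACNCC also stood before another start of HMGCS1 and another of IDI1, in windows with no CCAAT box. A match describes the letters in the window and no binding was measured. Whether these motifs bear on the response to itraconazole was not tested, and ACAT2 and FDFT1, which also rose, had no window.

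Counts in genes ran from 8269406 to 11110814 per library, and the 9 genes together took 0.0713% of them in HT55 DMSO, 0.112% in HT55 itraconazole, 0.0602% in SW948 DMSO and 0.323% in SW948 itraconazole (means, n = 4). All 10 epithelial and intestinal markers examined were detected in every group, with summed levels of 9896 to 10179.9 CPM (read counts scaled to the library size) in HT55 DMSO, 11731 to 12409 in HT55 itraconazole, 7292 to 7592 in SW948 DMSO and 9569 to 11911 in SW948 itraconazole. The rise of the sum in SW948 was not shared by all 10, of which 6 rose and 4 fell there: CDX2 (−0.88, log2), CDH17 (−0.66), VIL1 (−0.63) and CDH1 (−0.23). Of 8 markers of blood, stromal and endothelial cells, 7 were matched, and PTPRC, CD3E, COL3A1 and DCN had at most 3 counts in any library. The sum of the 7 ran from 28.1 to 33.0 CPM in HT55 DMSO, 21.8 to 62.2 in HT55 itraconazole, 19.5 to 26 in SW948 DMSO and 118 to 122 in SW948 itraconazole, where CD68 rose by 2.39 ± 0.11 (log2, SE) and COL1A1 by 1.65 ± 0.18. The part of either marker list in the results below was not tested. The total RNA of a culture was sampled, so fewer cells that express a gene and less RNA of it per cell cannot be told apart.

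Itraconazole was compared with DMSO within each line. ACAT2, HMGCS1, MVK, MVD, IDI1, FDPS and FDFT1 rose in both lines, PMVK fell in both, and GGPS1 passed the test in neither. In HT55, 8 of 9 were therefore called at an adjusted p under 0.05 (edgeR's quasi-likelihood test, Benjamini-Hochberg), where 54% of all 12133 genes tested were called, 27.5% as higher and 26.5% as lower. In SW948 the same 8 of 9 were called, where 80.2% of all 12505 genes tested were called, 38.9% as higher and 41.3% as lower. The median log2 fold change of the 9 genes was 0.72 in HT55 and 2.36 in SW948, beside −0.015 and −0.025 over all genes tested. The share of genes called was large in both lines, so the sizes are given gene by gene. Values are CPM on library sizes scaled by TMM, in the order of replicates 1 to 4, and fold changes are log2 with SE. The labels give no batch, so none could be examined.

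**Figure D1:**
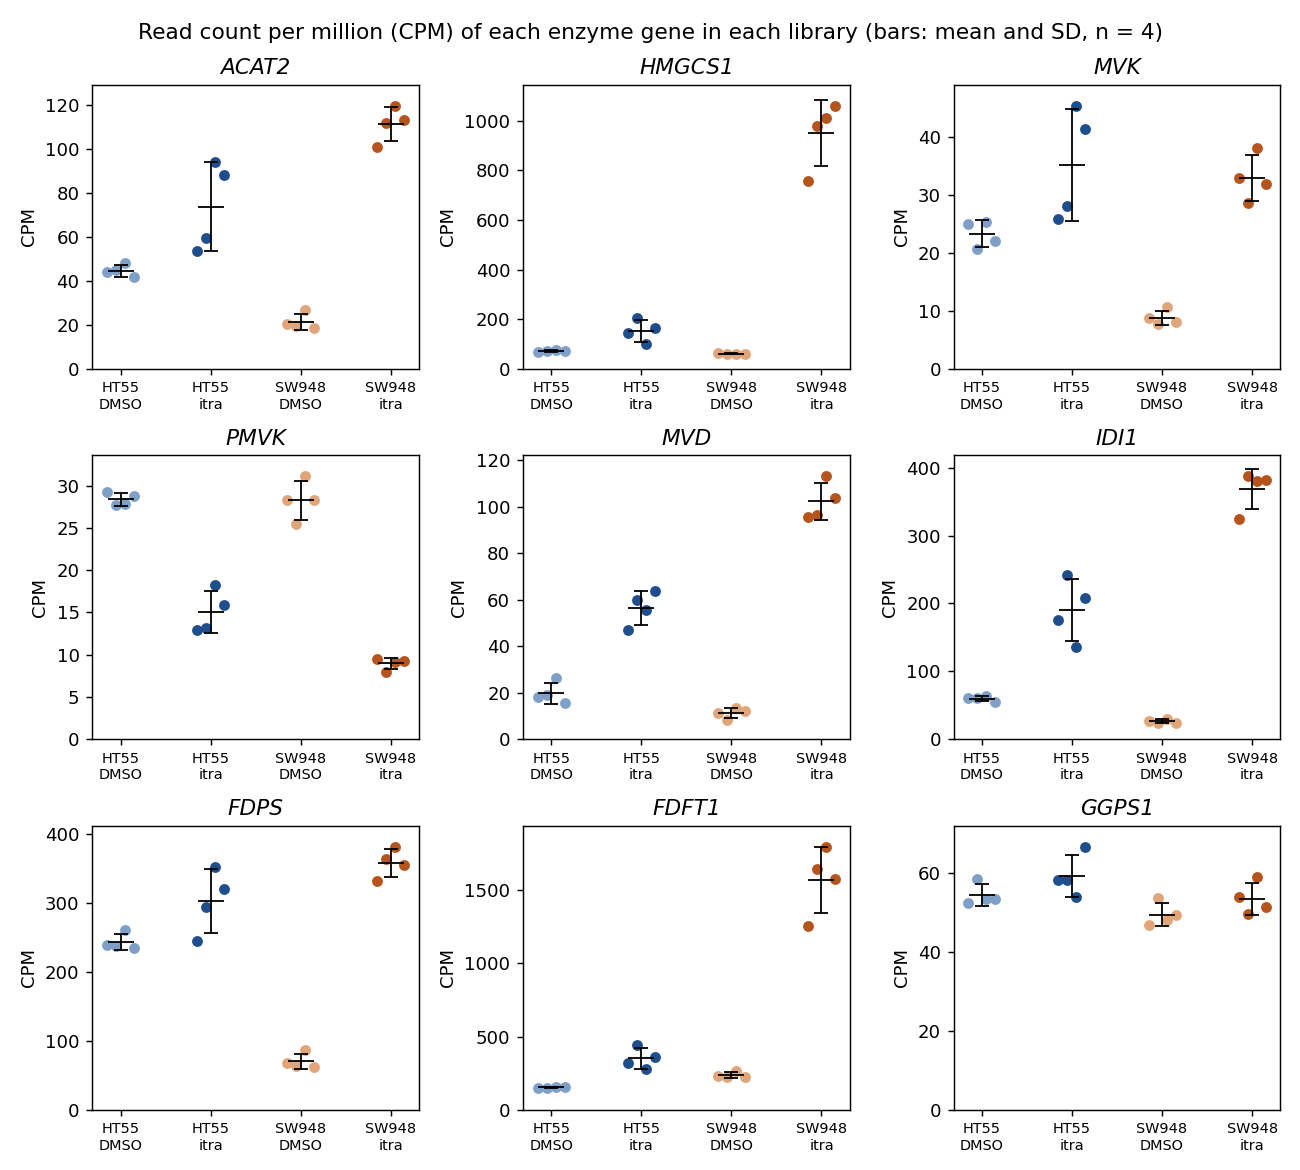
Each panel plots the scaled read count (CPM, linear axis from 0) of 1 enzyme gene in every library of the 4 groups, with the mean and SD of the 4 libraries as bars. The treated libraries lie above the DMSO libraries of their line for ACAT2, HMGCS1, MVK, MVD, IDI1 and FDFT1, below them for PMVK, and among them for GGPS1, while FDPS separates in SW948 and overlaps in HT55.

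ACAT2, the cytosolic thiolase that joins acetyl-CoA units into acetoacetyl-CoA, lies on chromosome 6 (160183077 to 160200144, plus strand). In HT55 it measured 44.1, 44.8, 48.1 and 41.5 CPM with DMSO and 53.3, 59.5, 94.1 and 88.0 CPM with itraconazole. In SW948 it measured 20.3, 19.5, 26.7 and 18.3 CPM with DMSO and 101, 112, 119 and 113 CPM with itraconazole. The groups did not overlap in either line, but the treated HT55 libraries formed a low pair, replicates 1 and 2, and a high pair, replicates 3 and 4. Reads that did not align uniquely made up 27.3% and 27.9% in the low pair and 24.1% and 24.8% in the high pair. A link between the 2 was not tested. The log2 fold change was 0.72 ± 0.17 in HT55 (adjusted p = 0.00454) and 2.36 ± 0.10 in SW948 (adjusted p = 1.84e-10). TCP1, on the opposite strand, shares 454 bases with the exons of ACAT2, 17.2% of them, and had 59159 counts over all 16 libraries. The strand setting of the counting is not given in the sources used here.

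HMGCS1, the cytosolic HMG-CoA synthase, lies on chromosome 5 (43287572 to 43313614, minus strand). It measured 68.3, 70.2, 75.3 and 70.7 CPM in HT55 DMSO and 146, 207, 98.7 and 164 CPM in HT55 itraconazole. SW948 DMSO libraries stood at 62.0, 61.0, 61.2 and 58.7 CPM, and SW948 itraconazole libraries at 756, 979.7, 1009.7 and 1060.1 CPM. Every treated library was above every DMSO library of its line, with replicate 3 the nearest to the controls in HT55 and replicate 1 the lowest of the treated in SW948. The increase was 1.10 ± 0.18 in HT55 (adjusted p = 0.000508) and 3.94 ± 0.10 in SW948 (adjusted p = 7.07e-12), the largest of the 9 genes in SW948. ENSG00000261604, a long noncoding RNA gene that is not among the counted genes, overlaps 2497 bases of its exons, 37.7%, on the opposite strand.

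MVK, mevalonate kinase, adds the first phosphate to mevalonate and lies on chromosome 12 (110011060 to 110035930, plus strand). Its HT55 libraries gave 25.0, 20.6, 25.4 and 22.1 CPM with DMSO and 25.9, 28.0, 45.3 and 41.3 CPM with itraconazole. In SW948 the values were 8.67, 7.76, 10.6 and 8.02 CPM with DMSO and 33.0, 28.6, 38.1 and 31.9 CPM with itraconazole. The HT55 groups came within 1 CPM of each other without overlapping, and those of SW948 lay far apart. MVK rose by 0.59 ± 0.18 in HT55 (adjusted p = 0.0156) and by 1.87 ± 0.12 in SW948 (adjusted p = 5.85e-09). The HT55 call was lost without itraconazole replicate 4 (0.51, adjusted p = 0.0521) and on plain library totals (0.44, adjusted p = 0.0787). MMAB, with 4636 counts over all 16 libraries, overlaps 225 bases of its exons on the opposite strand.

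PMVK, phosphomevalonate kinase, adds the next phosphate and lies on chromosome 1 (154897216 to 154909195, minus strand). In HT55 its values were 29.2, 27.7, 27.8 and 28.8 CPM with DMSO and 12.9, 13.2, 18.3 and 15.9 CPM with itraconazole. In SW948 they were 28.3, 25.5, 31.1 and 28.3 CPM with DMSO and 9.52, 8.0, 9.16 and 9.27 CPM with itraconazole. Here the treated libraries were the low ones in both lines, with no overlap. PMVK fell by 0.91 ± 0.12 on the log2 scale in HT55 (adjusted p = 0.000145) and by 1.68 ± 0.10 in SW948 (adjusted p = 3.40e-09). No other annotated gene shares exon bases with it, and none of its 757 windows of 50 bases occurs elsewhere in the genome.

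MVD, the decarboxylase that makes isopentenyl diphosphate, lies on chromosome 16 (88718343 to 88729569, minus strand). It gave 18.3, 19.0, 26.2 and 15.4 CPM in HT55 DMSO and 46.8, 59.8, 55.5 and 63.6 CPM in HT55 itraconazole. The corresponding SW948 values were 11.3, 8.33, 13.3 and 12 CPM and then 95.8, 96.5, 113 and 104 CPM. The groups were apart in both lines, and the DMSO replicates varied more for MVD than for the other genes in HT55 (SD 23.2% of the mean). MVD rose by 1.51 ± 0.15 in HT55 (adjusted p = 3.54e-05) and by 3.15 ± 0.11 in SW948 (adjusted p = 4.39e-11).

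IDI1, the isomerase that turns isopentenyl into dimethylallyl diphosphate, lies on chromosome 10 (1085092 to 1095059, minus strand). HT55 DMSO gave 60.4, 61.0, 64.1 and 54.6 CPM, and HT55 itraconazole gave 175, 242, 136 and 208 CPM. SW948 DMSO gave 27.0, 24.4, 30.5 and 23.8 CPM, and SW948 itraconazole gave 325, 387, 381 and 381 CPM. No treated library reached down to the controls, and HT55 replicate 3 was again the lowest treated library, as for HMGCS1. The increase of 1.66 ± 0.15 (adjusted p = 1.95e-05) was the largest of the 9 in HT55, and that of 3.77 ± 0.09 in SW948 (adjusted p = 6.58e-12) was next to that of HMGCS1. Of its windows of 50 bases 2.0% also occur elsewhere in the genome, and IDI2-AS1, with 16 counts over all libraries, overlaps 643 bases of its exons on the opposite strand.

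FDPS, farnesyl diphosphate synthase, builds the branch-point product and lies on chromosome 1 (155278539 to 155290457, plus strand). Its HT55 values were 239, 238, 260.1 and 235 CPM with DMSO and 244, 294, 352 and 321 CPM with itraconazole. Its SW948 values were 68.0, 64, 86.9 and 61.7 CPM with DMSO and 332, 364, 381 and 355 CPM with itraconazole. In HT55 the treated replicate 1 lay inside the DMSO range, whereas the SW948 groups were apart. FDPS rose by 0.31 ± 0.10 in HT55 (adjusted p = 0.0237) and by 2.32 ± 0.10 in SW948 (adjusted p = 1.36e-10). The HT55 call was lost in 4 of the 8 fits that left out 1 library (DMSO replicates 1, 2 and 4 and itraconazole replicate 4, adjusted p up to 0.0634) and on plain library totals (0.15, adjusted p = 0.277). FDPS has near-identical copies, with 4.36% of its windows of 50 bases found elsewhere, so its level is uncertain. RUSC1-AS1 overlaps 693 bases of its exons, 18.6%, on the opposite strand, and had 105 counts over all 16 libraries.

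FDFT1, squalene synthase, commits farnesyl diphosphate to sterols and lies on chromosome 8 (11653082 to 11696904, plus strand). It measured 149, 149, 156 and 156 CPM in HT55 DMSO and 323, 444, 279 and 358 CPM in HT55 itraconazole. In SW948 it measured 230.4, 227, 265 and 225 CPM with DMSO and 1258, 1649, 1797 and 1579.9 CPM with itraconazole. All treated libraries were above all controls of their line, and FDFT1 had the highest CPM of the 9 genes in treated SW948. The log2 fold change was 1.20 ± 0.12 in HT55 (adjusted p = 3.35e-05) and 2.70 ± 0.11 in SW948 (adjusted p = 8.12e-11).

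GGPS1, geranylgeranyl diphosphate synthase, takes farnesyl diphosphate down the other branch and lies on chromosome 1 (235490665 to 235507847, plus strand). It gave 52.4, 58.6, 53.5 and 53.4 CPM in HT55 DMSO and 58.3, 58.3, 53.9 and 66.6 CPM in HT55 itraconazole. In SW948 it gave 47.0, 53.7, 48.0 and 49.3 CPM with DMSO and 54.0, 49.7, 58.9 and 51.4 CPM with itraconazole. The groups overlapped in both lines. The log2 fold change was 0.12 in HT55 (95% interval −0.057 to 0.29, adjusted p = 0.232) and 0.081 in SW948 (−0.082 to 0.24, adjusted p = 0.336), and scaling by plain library totals turned the sign in both lines (−0.050, adjusted p = 0.595, and −0.25, adjusted p = 0.0104). Without HT55 itraconazole replicate 3 the HT55 value was called (0.17, adjusted p = 0.0471). Of its windows of 50 bases 4.68% occur elsewhere, and ARID4B overlaps 138 bases of its exons on the opposite strand. ENSG00000285053, a protein-coding gene that is not among the counted genes, shares 1422 bases of the GGPS1 exons, 37.3%, on the same strand. Reads from either gene in the shared bases cannot be told apart, so the level of GGPS1 is uncertain.

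**Figure D2:**
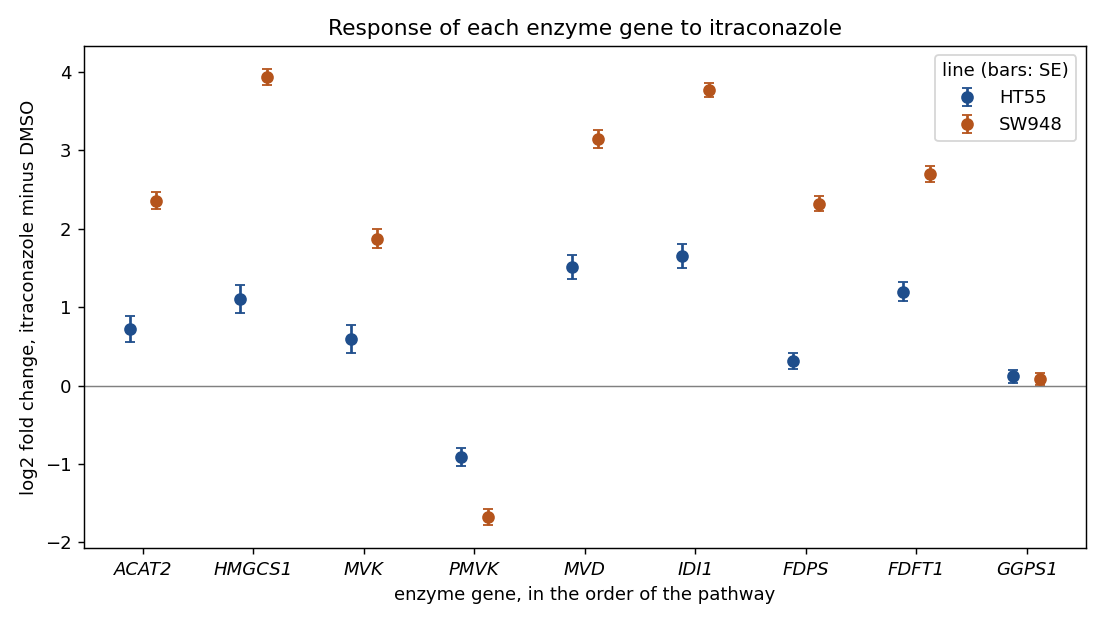
Points give the log2 fold change of itraconazole over DMSO for each enzyme gene in pathway order, blue for HT55 and brown for SW948, with SE as bars. The SW948 point is the higher for the 7 genes that rose, at 1.87 to 3.94 against 0.31 to 1.66 in HT55, the lower for PMVK, and beside the HT55 point for GGPS1.

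The responses of the lines were then compared with each other by the interaction of line and treatment over all 16 libraries, which uses the same libraries as the comparisons above. The response was larger in SW948 for all 7 genes that rose, and the fall of PMVK was deeper there. Thus 8 of 9 were called, where 53.9% of 13249 genes tested were, 24.8% as higher and 29.1% as lower. The difference in log2 fold change, SW948 minus HT55, was widest for HMGCS1 at 2.86 ± 0.21 (adjusted p = 6.12e-09). IDI1 followed at 2.14 ± 0.19 (adjusted p = 3.10e-08) and FDPS at 2.03 ± 0.15 (adjusted p = 5.63e-09). MVD, ACAT2, FDFT1 and MVK differed by 1.67, 1.67, 1.53 and 1.31. PMVK differed by −0.74 ± 0.16 (adjusted p = 0.000511). For GGPS1 the difference was −0.0066, with a 95% interval from −0.24 to 0.22 (adjusted p = 0.970).

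The lines did not start from the same levels. Under DMSO, SW948 had less than HT55 of FDPS (−1.79 ± 0.11, adjusted p = 1.17e-11), MVK (−1.41 ± 0.17), IDI1 (−1.18 ± 0.14), ACAT2 (−1.07 ± 0.15) and MVD (−0.81 ± 0.15), and more of FDFT1 (0.64 ± 0.12, adjusted p = 7.38e-05). These are 6 of 9, where 75.9% of all genes differed between the lines, 38.2% higher in SW948 and 37.7% lower. HMGCS1 was at −0.23 (95% interval −0.55 to 0.089, adjusted p = 0.179), although its DMSO libraries did not overlap between the lines. PMVK was at −0.0052 (−0.21 to 0.20, adjusted p = 0.965) and GGPS1 at −0.14 (−0.30 to 0.022, adjusted p = 0.109), and for both genes the lines overlapped.

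Under itraconazole the order of the lines was turned for 4 of the 9. SW948 now had more HMGCS1 (2.63 ± 0.15, adjusted p = 4.30e-12), FDFT1 (2.16 ± 0.12), IDI1 (0.96 ± 0.12), MVD (0.86 ± 0.13), ACAT2 (0.59 ± 0.14) and FDPS (0.24 ± 0.10, adjusted p = 0.0387), and less PMVK (−0.75 ± 0.12, adjusted p = 9.56e-06). These are 7 of 9, against 80.9% of all genes, 39.3% higher in SW948 and 41.5% lower. ACAT2, MVD, IDI1 and FDPS thus stood lower in SW948 than in HT55 with DMSO and higher with itraconazole. The FDPS libraries overlapped between the treated lines, and its call was lost on plain library totals (adjusted p = 0.0549) and in 5 of 16 fits that left out 1 library (lowest value 0.15, adjusted p = 0.163, without HT55 itraconazole replicate 1). MVK ended at −0.099 (95% interval −0.41 to 0.22, adjusted p = 0.553) and GGPS1 at −0.15 (−0.31 to 0.017, adjusted p = 0.0915), both with overlapping libraries.

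Levels of different genes were set side by side per kilobase of exon, taken over all annotated exons of each gene. In HT55 DMSO, FDPS stood highest at 65.4 ± 3.1 CPM per kilobase (SD, n = 4), then FDFT1 at 30.0 ± 0.82 and PMVK at 28.3 ± 0.76. ACAT2, GGPS1, IDI1 and HMGCS1 followed between 16.9 and 10.7, and MVD (4.19) and MVK (2.58) were lowest. GGPS1 and IDI1 were the neighbours whose libraries overlapped. In SW948 DMSO the first place went to FDFT1 at 46.6 ± 3.8, ahead of PMVK at 28.2 ± 2.3 and FDPS at 18.9 ± 3.1, and HMGCS1, ACAT2 and IDI1 formed a run in which neighbours overlapped.

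With itraconazole the per-length order in SW948 became FDFT1 (309 ± 45 CPM per kilobase), HMGCS1 (144 ± 20), FDPS (96.3 ± 5.5), IDI1 (85.8 ± 6.8), ACAT2 (42.2 ± 2.9), MVD (21.7 ± 1.7), GGPS1 (14 ± 1.1), PMVK (8.97 ± 0.67) and MVK (3.65 ± 0.43). Only FDPS and IDI1 were neighbours whose libraries overlapped. PMVK thus went from the second place to the eighth, and HMGCS1 from the fifth to the second. In HT55 itraconazole every pair of neighbours overlapped except MVD (12 ± 1.5) and MVK (3.89 ± 1.1). The levels depend on the length used: by the canonical transcript, 2833 bases for MVK in place of 9018, MVK stood at 11.6 in SW948 itraconazole and above PMVK, and FDPS at 253 passed HMGCS1 at 178.

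**Figure D3:**
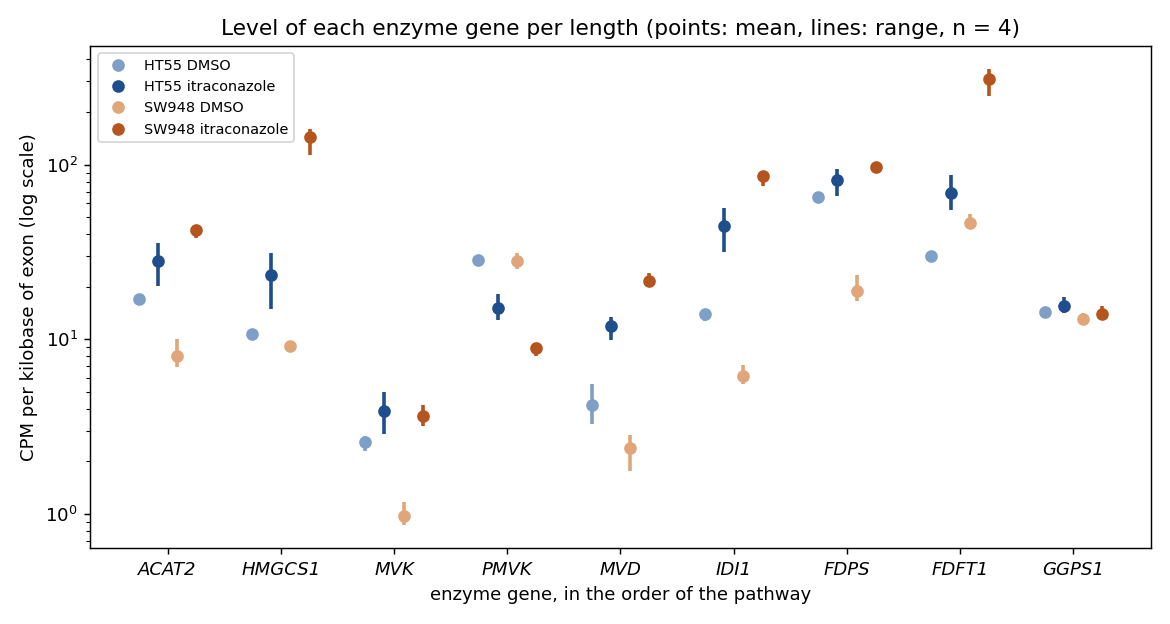
Points give the mean CPM per kilobase of exon (log scale) of each enzyme gene in the 4 groups, and lines the range over the 4 libraries. The 4 GGPS1 points lie between 13.0 and 15.6, while those of HMGCS1 run from 9.16 to 144 and those of PMVK from 28.3 down to 8.97.

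Within a group the genes did not all vary together, and most of that variation lay in the treated HT55 libraries. There, replicate 3 was low for HMGCS1 (−0.59 from the group mean, log2), IDI1 (−0.45) and FDFT1 (−0.31), and high for MVK (0.41), ACAT2 (0.39), PMVK (0.29) and FDPS (0.23). Replicate 2 went the other way, with HMGCS1 at 0.48, IDI1 at 0.38 and FDFT1 at 0.36, against −0.28 for MVK and −0.27 for ACAT2. Over the deviations of all 16 libraries from their group means, Pearson's r was 0.90 for HMGCS1 with IDI1, 0.88 for HMGCS1 with FDFT1, 0.92 for ACAT2 with FDPS and 0.90 for ACAT2 with MVK. The subsets meant here are HMGCS1, IDI1 and FDFT1, and then ACAT2, FDPS and MVK. Between them r was lowest for HMGCS1 with MVK at −0.42 and HMGCS1 with ACAT2 at −0.31, and highest for FDPS with FDFT1 at 0.22. The remaining pairs between them lay nearer to no correlation, from −0.18 for MVK with IDI1 to 0.16 for FDPS with IDI1. PMVK, left out of both subsets here, had an r of −0.61 with HMGCS1, −0.41 with IDI1 and −0.40 with FDFT1. These values are descriptions, since all genes of a library share its RNA, its depth and its scaling. The treated HT55 libraries also differed in reads that did not align uniquely (27.3%, 27.9%, 24.1% and 24.8% in replicates 1 to 4). The TMM factor of replicate 3 was 0.970, against 0.868 to 0.906 in the other treated HT55 libraries. Whether these differences bear on the subsets was not tested.

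Much of the contrast between the subsets rested on 1 library, as a calculation chosen after seeing the data showed. Without HT55 itraconazole replicate 3, r over 15 libraries was 0.22 for HMGCS1 with ACAT2 and 0.025 for HMGCS1 with MVK, while HMGCS1 with IDI1 stayed at 0.77 and ACAT2 with FDPS at 0.90. Without the treated HT55 group, over 12 libraries, ACAT2 with IDI1 went from −0.048 to 0.91. PMVK varied with MVK within groups (0.88 over 16 libraries and 0.71 over 12), although itraconazole moved them in opposite directions. With HMGCS1, PMVK went to −0.19 over the 15 libraries. GGPS1 gave no r beyond 0.29 in size with any other of the 9 genes over 16 libraries.

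**Figure D4:**
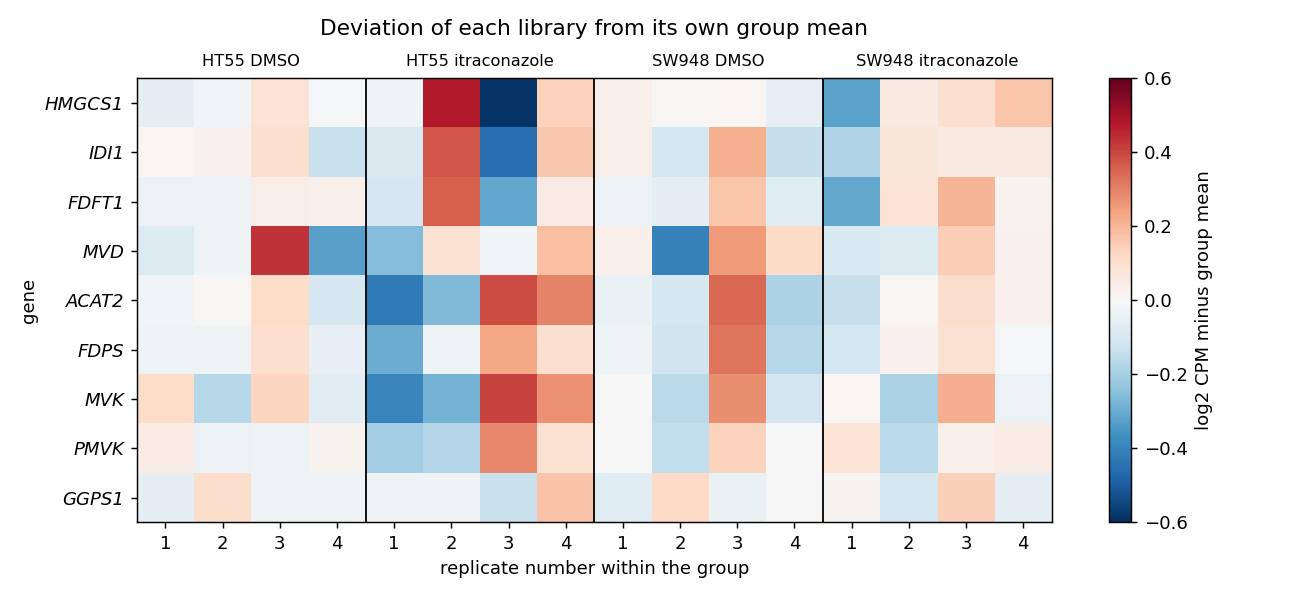
Each cell gives the log2 CPM of a gene in a library minus the mean of its group, from blue (lower) to red (higher), with the 16 libraries in columns by group and replicate. In HT55 itraconazole, replicates 2 and 3 show opposite colours for HMGCS1, IDI1 and FDFT1 against ACAT2, MVK and PMVK, and the HT55 DMSO columns are pale apart from MVD.

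Ratios of counts within a library do not depend on the scaling between libraries, and were taken for the enzymes around farnesyl diphosphate. The log2 ratio of FDFT1 to GGPS1, which draw on the same substrate, was 1.5, 1.34, 1.54 and 1.54 in HT55 DMSO and 2.47, 2.92, 2.37 and 2.42 in HT55 itraconazole. In SW948 it was 2.29, 2.07, 2.46 and 2.19 with DMSO and 4.54, 5.05, 4.92 and 4.93 with itraconazole. The ratio was higher in every treated library than in any DMSO library of its line, by 1.06 in HT55 and 2.61 in SW948. Each difference had an exact two-sided permutation p of 0.0286, the smallest that 4 against 4 libraries can give (adjusted over the 4 ratio tests, 0.0381).

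For FDPS, which makes farnesyl diphosphate, the log2 ratio to GGPS1 was 2.18, 2.02, 2.28 and 2.13 in HT55 DMSO and 2.06, 2.33, 2.71 and 2.26 in HT55 itraconazole. The HT55 groups overlapped, with a difference of 0.19 (exact permutation p = 0.257, adjusted 0.257). In SW948 the ratio was 0.53, 0.25, 0.85 and 0.32 with DMSO and 2.62, 2.87, 2.69 and 2.78 with itraconazole. These were apart by 2.25 (exact permutation p = 0.0286, adjusted 0.0381), so that by group mean SW948 moved from the lowest of the 4 groups to the highest, although its treated libraries overlapped those of treated HT55.

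**Figure D5:**
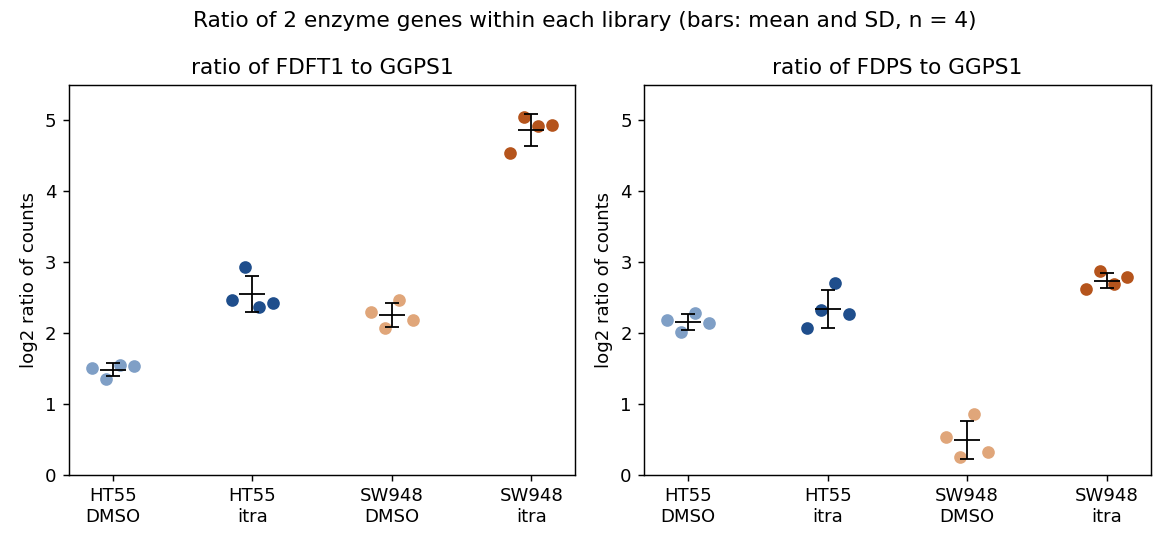
The left panel plots the log2 ratio of FDFT1 to GGPS1 counts and the right panel that of FDPS to GGPS1 in every library of the 4 groups, with mean and SD as bars. Treated and DMSO libraries are apart in every case but FDPS to GGPS1 in HT55, and SW948 DMSO is the lowest group for FDPS to GGPS1.

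The rest of the pathway was read from lists of genes chosen by function. Of 12 enzymes after squalene, 10 rose, 1 fell and 1 was not called in each line, with a median log2 fold change of 0.66 in HT55 and 2.20 in SW948. Of all genes tested, 27.5% were called higher and 26.5% lower in HT55, against 38.9% higher and 41.3% lower for SW948. MSMO1, the sterol C4 methyl oxidase, rose by 1.92 ± 0.17 in HT55 and by 4.77 ± 0.13 in SW948, and SQLE, squalene epoxidase, by 1.62 ± 0.12 and 3.87 ± 0.12. LBR, a sterol reductase that also holds chromatin to the nuclear lamina, fell by 0.26 and 0.30 on the log2 scale. The response was larger in SW948 for 8 of the 12 by the interaction test, where 24.8% of all genes were called as higher, and 4 were not called.

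Genes that supply acetyl-CoA or are paralogs of the 9 also moved in both directions. In HT55, where 54% of all genes were called, 4 of 7 tested rose and 1 fell (median 0.55), among them the citrate carrier SLC25A1 (0.62 ± 0.08). In SW948, where 80.2% of all genes were called, 3 of 6 rose and 2 fell (median 0.53), led by the cytosolic acetyl-CoA synthetase ACSS2 (2.76 ± 0.10) and SLC25A1 (1.20 ± 0.11). The mitochondrial acetyl-CoA synthetase ACSS1 was the lowest in both lines, at −0.66 ± 0.09 and −1.69 ± 0.16. IDI2, the paralog of IDI1, had too few counts to be tested in either line.

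Genes that use isoprenoids moved in both directions. Of 14 tested, 3 rose and 4 fell in HT55 (median −0.057), and 4 rose and 10 fell in SW948 (median −0.56). The HT55 count is near the 54% of all genes called there, and in SW948 41.3% of all genes fell. RABGGTB, a subunit of the transferase that geranylgeranylates Rab proteins, had the largest increase in each line, at 0.56 ± 0.16 in HT55 and 1.83 ± 0.08 in SW948. COQ2, which prenylates the precursor of coenzyme Q, was lowest in HT55 at −0.79 ± 0.14. DOLK, dolichol kinase, was lowest in SW948 at −2.88 ± 0.21.

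Of 8 genes of the SREBP machinery and its targets, 5 rose and 1 fell in HT55 (median 0.36), and 4 rose and 4 fell in SW948 (median 0.15). The shares of all genes that rose and fell were 27.5% and 26.5% in HT55 and 38.9% and 41.3% in SW948, close to the even split of the list in SW948. INSIG1, a sterol-regulated anchor of the SREBP complex, rose by 1.83 ± 0.13 in HT55 and by 6.18 ± 0.22 in SW948. The smallest values were those of SREBF1 in HT55 (−0.43 ± 0.06) and of MBTPS2, a protease that releases SREBP, in SW948 (−1.88 ± 0.13).

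Genes with a profile most like the mean of the 9 over the 16 libraries, each gene centred within its line, were ranked by Pearson's r among 12918 genes. The 10 highest that are not among the 9 were DHCR7 (0.998), NSDHL (0.997), HK1 (0.996), SCD (0.996), EBP (0.995), SQLE (0.995), INSIG1 (0.995), STARD4 (0.993), IFITM1 (0.993) and TMED9 (0.993). DHCR7, NSDHL, EBP and SQLE are enzymes of sterol synthesis after squalene, SCD desaturates fatty acids, and STARD4 carries cholesterol. HK1, a hexokinase, and IFITM1, an interferon-induced membrane protein, have other known roles. The treatment difference is part of every one of these r values, which are descriptions over shared libraries. Against the same mean, to which each contributes, IDI1 had an r of 0.990, FDFT1 0.987, MVD 0.987, HMGCS1 0.986, ACAT2 0.985, FDPS 0.978, MVK 0.972, GGPS1 0.506 and PMVK −0.947.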

How the data were processed

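Per the labels, RNA was extracted with a column kit and TruSeq libraries were made. The study's methods give single-end reads of 50 bp aligned to hg19, and the submitters' processing notes name TopHat, HTSeq and DESeq without versions or settings. The authors deposited raw read counts per Ensembl gene for each of 16 libraries. Reads not assigned to a single gene (28.2% to 32.9% per library) stayed out of totals and tests. Most of these did not align uniquely (22.0% to 27.9% of all reads). Without molecular identifiers, a count is not a molecule.

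Symbols (47098 identifiers, 97.8% of counts) and coordinates came from GENCODE on GRCh37. Tests used edgeR 4.0.16 in R 4.3.3 (TMM, filterByExpr, quasi-likelihood F test on all genes, Benjamini-Hochberg, 0.05). Each line was fitted on its 8 libraries, and the interaction and line differences on all 16. SE was derived from the fold change and F. Ratios used counts plus 2. The fits were tested on simulated data. The alternatives comprised DESeq2 1.42.0, other scalings and filters, a replicate block and leaving out each library. The genes and lists were chosen with earlier results of these data known. All 9 genes were named whatever their values, as were the 2 largest and the smallest changes of each list and the 10 most alike genes. Genes that may not be reported were left out.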

Additional observations from a re-analysis of the deposited data

Results flagged for a closer look

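The response to itraconazole differed between the lines by the interaction test for 8 of the 9 genes. The difference in log2 fold change, SW948 minus HT55, was 1.67 for ACAT2, 2.86 for HMGCS1, 1.31 for MVK, −0.74 for PMVK, 1.67 for MVD, 2.14 for IDI1, 2.03 for FDPS and 1.53 for FDFT1, where 53.9% of all genes were called in the same test.

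In 3 groups of 4 libraries, 1 library stood apart from the other 3, with its gap to the nearest of them above Dixon's 95% critical share of the range. IDI1 in SW948 itraconazole had its lowest value, 325 CPM, in replicate 1, with a gap of 0.902 of the range. FDPS in HT55 DMSO had its highest value, 260.1 CPM, in replicate 3 (0.848), and FDFT1 in SW948 DMSO had its highest, 265 CPM, in replicate 3 (0.859). Chance gives about 1 such group in 20, or 2.2 of the 44 examined.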

How the results depend on the processing

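Plain library totals moved the median of all genes by −0.16 (HT55), −0.33 (SW948), −0.19 (interaction) and 0.20 (DMSO line difference), and the share of higher among called genes to 32.6% from 51.0%, 31.6% from 48.5%, 31.8% from 46.1% and 61.0% from 50.3%. Counts of called genes, over all genes and over the 9, stayed within 1.5 times under every setting. Of 144 alternative values of the 9 genes per treatment comparison, 135 kept direction and call in HT55 and 143 in SW948. The signs that changed were those of GGPS1, PMVK and MVK. On plain totals GGPS1 was at −0.050 in HT55, −0.25 in SW948 and 0.057 between DMSO lines. GGPS1 in SW948 was thus called lower on plain totals (edgeR's quasi-likelihood test, adjusted p = 0.0104). The GGPS1 interaction turned with DESeq2 size factors (0.020) or the DESeq2 Wald test (0.021) and when 1 library was left out (−0.061 to 0.042). The PMVK DMSO line difference turned on plain totals (0.19), with no filter (0.0070) and with at least 10 counts in every library (0.020). It also turned without the 20 top and mitochondrial genes (0.00081) and when 1 library was left out (−0.052 to 0.042). The MVK itraconazole line difference turned when 1 was left out (−0.22 to 0.054). Unfiltered, the HMGCS1 DMSO line difference was called (−0.22, adjusted p = 0.0353), and GGPS1 between treated lines was called without replicate 3 of either treated group (−0.19 each).

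Same-numbered libraries had a mean r of deviations of 0.032 in HT55 and 0.057 in SW948, against −0.011 and −0.018 for different numbers. Replicate 3 had the highest r in each line, at 0.14 in HT55 and 0.13 in SW948. The labels do not say what a shared number stands for, and these values cannot settle whether such libraries were paired. The replicate block changed no call of the 9 genes, gave 6300 called genes in HT55 and 9973 in SW948, and for the ratios kept 1.06 and 2.61 (FDFT1 to GGPS1) and 2.25 (FDPS to GGPS1, SW948) at p = 0.125, the smallest exact p of 4 pairs. Leaving out 1 library gave 0.94 to 1.12, 2.55 to 2.72 and 2.17 to 2.37 for these ratios, at 0.0571, the smallest exact p of 3 against 4. The lowest counts of the 9 genes were those of PMVK in SW948 itraconazole, 62 to 95 per library.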
